A study of Mus musculus and synthetic construct with 32 samples.

Results

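The 9-mers described here carry a pyrimidine, C or T, directly before a central A and a C directly after it. They were measured by RNA Bind-N-Seq, an assay in which a protein picks RNAs out of a random pool and the picked RNAs are sequenced. Of the 65536 9-mers listed, each with A at character 5, 8192 have C or T at character 4 and C at character 6, and the rule looks at sequence only, not at any measured value. Characters are counted from 1 at the 5′ end, and T stands for U of the RNA, as in the authors' table.

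The pool consisted of synthetic single-stranded RNAs of 21 nt in which an N6-methyladenosine (m6A) sits between 10 random letters on either side. In the bound group, 4 libraries came from RNA held by the YTH domain of human YTHDC2, fused to a 6xHis-SUMO tag on Ni-NTA beads. The control group, also 4 libraries, came from RNA that stuck to the same kind of beads without protein. Both groups drew on the methylated pool, and the protein was the isolated domain, without the helicase part of YTHDC2. The other libraries of the series, from mouse gonads, hold no 9-mers.

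The YTH domain is a fold that recognises m6A by closing a pocket of aromatic side chains around the methyl group, and the letters next to the m6A add contacts of their own. In mammalian mRNA most m6A is written by the METTL3 and METTL14 complex within a consensus in which a purine precedes the methylated A and a C follows it. The domain of the nuclear relative YTHDC1 is known to prefer a G before the m6A. A pyrimidine before and a C after the A is thus outside the usual writing consensus at one position and inside it at the other. YTHDC2 itself is needed for germ cells to go through meiosis.

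How 9-mers were counted is not stated, so the central A need not be the m6A of the RNA in every case. The sequences that carry the values below are shown with characters 4 to 6 in capitals, the letter before, the central A and the letter after. They are the highest 9-mer with T before, the highest with that T and a C at character 7, the highest with C before, another high one with C before, and the lowest with each letter.
Highest with T before: tgtTACaca
Highest with T before and C at character 7: agcTACctc
Highest with C before: ccaCACtgt
Second highest with C before: gacCACatg
Lowest with T before: ctcTACcga
Lowest with C before: gtgCACttc

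These 9-mers were enriched by the YTH domain more often than depleted. Of the 8192, 3281 (40.1%) were called higher with the YTH domain than with beads, against 17.3% of all 9-mers. Another 1248 (15.2%) were called lower, against 47.2% of all 9-mers, and the other 3663 did not pass. The fold is the linear ratio of the YTH domain libraries to the bead libraries, 1 value per 9-mer in the authors' deposited table. The median fold of the members was 1.15, with quartiles of 0.883 and 1.64, and 63.5% of them lay above 1. Over all 65536 9-mers the median was 0.774, which is -0.37 on the log2 scale, and 30.3% lay above 1. Folds below 1 were thus the rule in this table, and relative to its median 85.4% of the members stood higher.

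The calls rest on the authors' unadjusted p-value per 9-mer, which takes 9 distinct levels. The smallest level, 0.0286, is the smallest two-sided p that an exact permutation of 4 libraries against 4 can give, in 2 of 70 splits. With Benjamini-Hochberg adjustment over the whole table, 9-mers at that level had an adjusted p of 0.0443, while the next level, at 0.0791, did not pass 0.05. Every called 9-mer has the same p, so only the size of the fold ranks them. The columns used give no spread and no read depth, so no counting interval was attached to the folds. Whether the 4 libraries of a group came from separate binding reactions is not stated, and the p-values then measure a spread that may be technical. Differences between letters are given as medians and counts of matched contexts, without a test, because all 9-mers come from the same 8 libraries.

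The distribution had a long upper tail. Folds of at least 5 were found for 274 members, 3.34% of them, against 0.876% of all 9-mers. At least 10-fold enrichment was found for 72 members, or 0.879%, against 0.247% of the table. At the other end the fold went no lower than 0.385 among the members.

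The pyrimidine before the A made little difference on its own. The 4096 9-mers with T at character 4 had a median fold of 1.19, and the 4096 with C a median of 1.11. Of those with T, 1814 (44.3%) were called higher and 616 (15.0%) lower. With C, 1467 (35.8%) were called higher and 632 (15.4%) lower. When 9-mers equal at the other 8 characters were set side by side, the T form was higher than the C form in 2279 of 4096 contexts (55.6%), with a median difference of 0.06 on the log2 scale. The quartiles of that difference, -0.24 and 0.45, lay on both sides of 0. The upper tail leaned to T, with 50 of the 72 members at 10-fold or more.

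Beside the purines of the writing consensus, T stood level with A, C a little below A, and both pyrimidines above G in most contexts. With C after, 9-mers with A before had a median fold of 1.20, while those with G before had 0.780. In matched contexts the T form exceeded the A form in 2046 of 4096 (50.0%), with a median difference near 0. The C form exceeded the A form in 1725 of 4096 (42.1%), with a median difference of -0.09. Against G the order was much more one-sided. The T form was higher than the G form in 3653 of 4096 contexts (89.2%), by a median of 0.59 on the log2 scale, and the C form in 3385 (82.6%), by 0.50. G was the lowest of the 4 letters in 3138 contexts (76.6%) and the highest in 157 (3.83%).

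The C after the A went with larger differences than the choice of pyrimidine before it. In contexts with C or T before, C at character 6 was higher than A in 7529 of 8192 contexts (91.9%) by a median of 0.87 on the log2 scale, and higher than G in 7492 (91.5%) by 0.75. T at character 6 came closest. C was higher than T in 5926 contexts (72.3%), by a median of 0.25. C at character 6 gave the highest fold of the 4 letters in 2463 of 4096 contexts with T before (60.1%) and in 2899 of 4096 with C before (70.8%).

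Character 3, the second letter before the A, favoured A. The median fold was 1.48 for members with A at character 3, 1.14 with T, 1.07 with C and 0.999 with G. A was above the mean of the other letters, on the log2 scale, in 1858 of 2048 matched contexts (90.7%), by a median of 0.45. G was below that mean in most contexts, being higher in only 434 of 2048 (21.2%), with a median difference of -0.31. Of the 2048 members with A at character 3, 60.0% were called higher and 4.20% lower, and of those with G 29.5% were called higher and 25.5% lower.

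T and C at character 3 changed places with the letter at character 4. After T at character 3, the T form at character 4 was higher than the C form in 792 of 1024 contexts (77.3%), by a median of 0.35 on the log2 scale. After C at character 3 the order turned, with the T form higher in 321 of 1024 (31.3%) and a median of -0.15. After A the pyrimidines differed by a median of 0.02, with T higher in 534 of 1024.

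Character 7, the second letter after the A, went with the largest differences of the single characters that vary. Members with A at character 7 had a median fold of 1.63 and 66.9% of them were called higher. Those with C had a median of 1.22, those with G 1.00 and those with T 0.980. A stood above the mean of the other letters in 1801 of 2048 contexts (87.9%), by a median of 0.55 on the log2 scale, and T in 330 (16.1%), by a median of -0.48. T at character 7 also held 27.1% of its members among those called lower, against 3.71% for A. The far upper tail had another order. Of the 72 members at 10-fold or more, 35 had C at character 7, 24 A, 13 T and 0 G.

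C at character 7 was read differently after each pyrimidine. With T before the A, C at character 7 was above the mean of the other letters in 672 of 1024 contexts (65.6%), by a median of 0.24 on the log2 scale. With C before the A, it was above that mean in 374 of 1024 (36.5%), and the median was -0.14. The median fold with C at character 7 was accordingly 1.48 for T before and 1.10 for C before. G at character 7 went the other way, at 0.936 for T before and 1.07 for C before.

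Considered jointly, characters 3, 4 and 7 make 32 combinations of 256 members each. The highest median fold, 2.26, belonged to A at character 3, T at 4 and A at 7, in which 235 of 256 members were called higher and 99.6% had a fold above 1. A, C and A at the same characters followed with 2.21 and 210 called, and A, T and C with 2.04 and 205 called. At the bottom stood G, C and T with a median of 0.711, of which 31 of 256 were called higher. G, T and T came next, with a median of 0.782 and 19 called higher. The combination at the bottom still held a 9-mer with a fold of 20.2 in the authors' deposited table, tggCACtgt. Of the 256 members with G, C and T, 11 (4.30%) had a fold of at least 5 and 4 (1.56%) of at least 10. Among all members these shares were lower, at 3.34% and 0.879%.

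Among the flanks, character 8 again favoured A. The median fold with A at character 8 was 1.47, against 1.13 with T, 1.06 with C and 1.04 with G. A exceeded the mean of the other letters in 1788 of 2048 contexts (87.3%), by a median of 0.44 on the log2 scale. At character 9, A had the highest median too, 1.33, and exceeded the mean of the others in 1495 contexts (73.0%), by 0.27. C, G and T at character 9 had medians of 1.08, 1.08 and 1.15. Of the 72 members at 10-fold or more, however, 31 had C at character 9, 21 A, 17 T and 3 G.

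In the 5′ flank, A had the highest median at character 2 but not at character 1. At character 1 the highest median belonged to C, 1.29, and C was above the mean of the other letters in 1535 of 2048 contexts (75.0%), by a median of 0.22 on the log2 scale. A, T and G followed with medians of 1.16, 1.08 and 1.06. At character 2, T was the least enriched letter with a median of 0.998, and it was above the mean of the others in 379 contexts (18.5%), with a median difference of -0.30. A, C and G at character 2 had medians of 1.24, 1.18 and 1.16. Of the 72 members at 10-fold or more, 41 had G at character 2, 11 T, 10 A and 10 C.

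The number of A letters outside characters 4 to 6 tracked the median fold. Members with no A among these 6 letters had a median fold of 0.867, and 16.0% of the 1458 were called higher. The median was 1.03 with 1 A, 1.28 with 2, 1.71 with 3 and 2.46 with 4. The share at 10-fold or more instead fell from 1.37% with no A to 0.556% with 3, then was 2.96% with 4. Of the 36 members with 5 A letters 35 were called higher, at a median of 4.16. G went in the opposite direction, from a median of 1.45 in the 1458 members without G to 0.946 in the 270 members with 4 of them. The median fell with the number of T letters as well, from 1.39 in the 1458 members without T to 1.08 with 2 and 1.02 with 4. The number of C letters moved the median little, from 1.18 with none to 1.14 with 3.

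A least-squares fit of the log2 fold on the 7 variable characters, each acting alone, accounted for 36.9% of the variance among members, which is a description of this table. Character 7 held 15.6%, character 3 7.83% and character 8 5.49%. Characters 9, 2 and 1 held 2.97%, 2.74% and 1.66%, and the choice of pyrimidine at character 4 held 0.599%. Adding every pair of characters raised the share to 69.6%. The largest single pair was characters 7 and 9 with 9.22%, followed by 8 and 9 with 4.37% and 4 and 7 with 3.23%. Of these 3 pairs, 2 lie on the 3′ side of the A.

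Character 4 and characters 7 to 9 make 128 combinations of 64 members each, and the 8 highest had median folds from 2.64 to 5.26. With T before, the highest ended in AAA (median 5.26), then in CTC (4.82), in ACA (4.27) and in CGC (2.64). With C before, the highest ended in AAA as well (median 4.51), then in ACA (3.05), in TGT (3.00) and in TAT (2.66). In 6 of these 8 combinations 0 members were called lower, and in all 8 between 50 and 63 of the 64 were called higher. AAA and ACA were thus among the 8 with either pyrimidine, while each of the remaining endings was there with one of them.

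Endings in CTC and CGC went with T before the A, and endings in TGT and TAT with C. In contexts that end in CTC the T form was higher than the C form in 63 of 64, by a median of 1.84 on the log2 scale, and with C before the median fold was 1.23. For CGC the T form was higher in 60 of 64, by 1.25. The order turned for TGT, where the T form was higher in 1 of 64 contexts with a median difference of -1.62. For TAT it was likewise higher in 1 of 64, by a median of -1.27. GAT and GGT also favoured C before, with the T form higher in 4 and 2 of 64 contexts. The near equality of T and C at character 4 over all contexts thus did not hold in these endings. In some other endings the difference was small, such as a median of 0.13 for AAA and -0.01 for GTG. Others were one-sided. For TTC the T form was higher in 63 of 64 contexts, by a median of 0.77, and for CAC in 52 of 64, by 0.71. For GAC the T form was higher in 6 of 64, with a median difference of -0.46.

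At the low end, members that end in TGA with C before had a median fold of 0.648, and 0 of 64 were called higher. TGG and TGC with C before followed with 0.707 and 0.717. GCT with T before had a median of 0.736 and its highest member reached 0.934. The endings TGA, TGG and TGC differ from TGT, the ending with a median of 3.00 after C, at character 9 alone.

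Within the best endings the fold also varied with characters 2 and 3. The pairs named here were picked by value, from the high and low ends of each ending. Among members with T before and the ending ACA, the 4 with G at character 2 and T at character 3 had a median fold of 31.8, while the 4 with T and C there had 1.80. With T before and the ending CTC, G and C at characters 2 and 3 gave a median of 36.1, A and C 23.3, and T and G 0.924. With T before and the ending CGC, G and C gave 21.4 and G and T 19.7, against 0.802 for T and C. With C before and the ending TGT, G and G at these characters gave 8.73, T and T 8.64 and T and C 1.09. With T before and the ending AAA, G and T gave 16.7 and T and C 2.23. Each of these medians rests on 4 members that differ only at character 1.

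The highest percent of the members held mostly the endings named above. These 82 members had folds from 9.49 to 124, and 69 of them (84.1%) had one of the 6 endings named above (17 had CTC, 16 AAA, 11 CGC, 10 ACA, 9 TGT and 6 TAT). Both the endings and the 82 were picked by the same folds, so this overlap is no separate evidence. Of the 8192 members, each ending holds 64 with T before and 64 with C before. Among the 82, T stood before the A in 57 and C in 25. No G was found at character 7 among the 82. In the lowest 82, T was at character 7 in 56 and G at character 3 in 44, and none had A at either of these characters.

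The strongest member was tgtTACaca, with a fold of 124 in the authors' deposited table, second of all 65536 9-mers after cgtCATgca at 135. The next was tgtTACaaa, which differs at character 8 and had a fold of 57.7 in the authors' deposited table. All 4 9-mers made of gtTACaca behind any first letter were high, between 28.7 and 124 in the authors' deposited table. Ranks 3 to 5 were held by agcTACctc at 47.3, ggcTACctc at 38.0 and cgcTACctc at 34.2 in the authors' deposited table. The 4 9-mers of gcTACctc with any first letter spanned 32.2 to 47.3 in the authors' deposited table.

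Single-letter changes of tgtTACaca differed widely in the fold they left. In each change the first letter is that of tgtTACaca, followed by the position and the new letter. Since tgtTACaca and the other high 9-mers were picked for their folds, and gtgCACttc as the lowest, the direction of most changes is set by that choice, and only their sizes are described. In the authors' deposited table, the change C6A left 0.712, C6G 0.863 and C6T 1.16, all near or below 1. The letter before behaved in steps, since T4C left 14.8, T4A 6.60 and T4G 0.646 in the authors' deposited table. The G form, tgtGACaca, thus lay below 1, at 1/192 of the fold of the T form.

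The remaining positions of tgtTACaca were not equal. Changes at character 7 left 1.99 (A7C), 1.86 (A7G) and 1.37 (A7T) in the authors' deposited table. Changes at character 3 left 4.21 (T3A), 2.80 (T3C) and 4.07 (T3G) in the authors' deposited table. At character 8 the change C8A kept 57.7 but C8G left 2.09 in the authors' deposited table. At character 9, A9C left 13.6, A9G 1.68 and A9T 1.41 in the authors' deposited table. At character 1 every change left between 28.7 and 32.8 in the authors' deposited table. The steepest losses of tgtTACaca thus came with T4G and the changes at character 6, and the mildest with C8A and the changes at character 1.

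In agcTACctc, the changes at character 6 cost the most and those of the first letter little. In the authors' deposited table C6A left 0.494, C6G 0.669 and C6T 0.652. The fold of agcTACctc, 47.3 in the authors' deposited table went to between 32.2 and 38.0 with any other letter at character 1, and to 32.4 with G2A. T at character 3 in place of C (C3T) left 23.4 in the authors' deposited table, and G there (C3G) 2.23. At character 8, G in place of T (T8G) left 33.5 in the authors' deposited table. At character 9, C9A left 0.981, C9G 1.05 and C9T 3.43 in the authors' deposited table. At character 7, C7A left 3.24 and C7G 0.842 in the authors' deposited table. A at character 7, the letter with the highest median over all members, thus came with a fold of 3.24 in this sequence.

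The highest member with C before, ccaCACtgt, had a fold of 27.6 in the authors' deposited table. Changes at character 6 left 0.671 (C6A), 0.628 (C6G) and 0.847 (C6T) in the authors' deposited table, as low as in the sequences with T before. Replacing its C before the A by T (C4T) left 1.28 and by A (C4A) 1.03, while G (C4G) left 6.51, in the authors' deposited table. G before the A, the lowest letter in most contexts, was here the best of the other letters. At character 9, T9A left 0.841, T9G 0.898 and T9C 1.21 in the authors' deposited table. At character 8, G8A left 19.7 and G8C 1.53 in the authors' deposited table. At character 3, A3G left 15.5 and A3C 1.36 in the authors' deposited table.

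The second highest member with C before was gacCACatg, with a fold of 27.1 in the authors' deposited table. It also holds GAC, a triplet of the writing consensus, at characters 1 to 3. The part of this GAC in the fold was not tested. None of the 24 single changes of gacCACatg kept a fold of 10 or more. The change C6A left 7.59 and C6T 6.19 in the authors' deposited table, the smallest losses at this character among these 4 high 9-mers. G at character 6 (C6G) left 0.585 in the authors' deposited table. At character 3 the fold left was 1.58 (C3A), 1.11 (C3G) and 1.18 (C3T) in the authors' deposited table.

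At the bottom, gtgCACttc had a fold of 0.385 in the authors' deposited table. As the lowest member it had to lie below the 19 single changes that are members themselves. Of the 5 others, C6A stood at 0.375, C6G at 0.388 and C6T at 0.415 in the authors' deposited table, all close to it. C4A stood at 0.533 and C4G at 1.25 in the authors' deposited table, the one change of the 24 above 1. Other low members were gtgCACttt at 0.406, tagCACttc at 0.418 and gctCACtga at 0.421 in the authors' deposited table. With T before, the lowest was ctcTACcga at 0.421 in the authors' deposited table.

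Whether 1 RNA could give several 9-mers is not stated, so neighbouring windows may share reads. For tgtTACaca, the 16 windows moved by 2 letters toward the 3′ end, which place the next A in the middle, had folds from 1.02 to 10.1 with a median of 2.09. The 256 windows moved by 4 letters, which place its last A in the middle, had folds from 0.519 to 13.3 with a median of 1.04. Over the 2048 members with A at character 9, the log2 fold and the mean log2 fold of the windows moved by 4 letters toward the 3′ end had a Spearman's rho of 0.59. Over the 2048 with A at character 3, rho with the windows moved by 2 letters toward the 5′ end was 0.39, and in the other 4 shifts tried it lay between -0.12 and -0.02. These windows share letters and libraries, and the part of shared reads in the folds was not tested.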

How the data were processed

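RNA Bind-N-Seq was analysed in 4 YTH domain and 4 bead libraries, grouped by the labels. Per the submitters' processing notes cutadapt was used. Its version, how 9-mers were counted and the formula of the fold are not stated in the sources read here. Per the file headers, the deposited values are, per 9-mer, the linear fold (a ratio, bound over control) and a p-value without adjustment. Library depth is unknown from these columns. Another 8 columns, apparently 1 for each library, have names found in none of the labels. They were left out, so the planned tests across libraries were not run. Mouse tables were not used.

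Members were found by their letters. The p-values were adjusted by Benjamini-Hochberg over all 65536 9-mers (scipy 1.17.1, Python 3.11.15), with 0.05 as the threshold. Folds were taken to log2 for matched differences, with no pseudocount and no filter, and the code was tested on simulated data. Named 9-mers were the 5 highest and 5 lowest members, the highest and lowest for each pyrimidine, the extreme combinations of characters 3, 4 and 7, and the highest member with A and G before. The members and questions were chosen with earlier results of these data known. The endings of characters 7 to 9, the counts of letters, tgtTACaaa, agcTACctc, gacCACatg and tggCACtgt as examples, and all single-letter changes were chosen after their values were seen. The alternatives tried were other thresholds, means or ranks, and leaving out 9-mers with GAC or AAC elsewhere.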

Additional observations from a re-analysis of the deposited data

How the results depend on the processing

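At an unadjusted p below 0.05 the counts of called members were unchanged, at 3281 higher and 1248 lower. At an adjusted p below 0.01 both counts were 0, since the smallest adjusted p that the authors' p-values allow is 0.0443; at an unadjusted p below 0.05 the same p-values give 3281 and 1248. With a fold of at least 1.5 required as well, 2392 were higher and 479 lower. The share of all 9-mers at this threshold is not given here, so these counts are not set against the table. The median fold of 1.15 was 1.28 as a geometric mean and 1.14 without the 1000 members that hold GAC or AAC elsewhere. Divided by the median of all 9-mers, a choice made after seeing the data, it was 1.48. The matched difference of C minus T at character 4 was -0.06 on the log2 scale as a median and -0.13 as a mean, and -0.06 without those contexts. For A at character 3 the difference went from 0.45 to 0.54 without them, and for A at character 7 from 0.55 to 0.56. The flanks' share of variance was 12.9%, 14.3% without those 9-mers and 16.4% on ranks. No direction turned in these alternatives. No paired analysis was possible because the columns used hold 1 fold and 1 p per 9-mer and no value per library. For the same reason the alternatives that leave out a library, change a pseudocount, filter on low values or use DESeq2 were not run.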
